A study of Mus musculus with 2 samples.

Results

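Genes for 10 transcription factors of the developing heart were followed through a map of Sap130 binding in the embryonic mouse brain. The 10 genes are Nkx2-5, Gata4, Gata5, Gata6, Tbx5, Tbx20, Hand1, Hand2, Isl1 and Mef2c, taken by name out of 20953 protein-coding genes. A peak was counted for a gene when the authors' table labelled it with that gene, or when it carried no label and lay within 100 kb of the gene body. By this rule 18 of the 16231 peaks belonged to 3 of the 10 genes, Isl1, Mef2c and Nkx2-5, and the other 7 genes had none. The series concerns brain development and behaviour in congenital heart disease, and the comparison is which of these heart regulators carry Sap130 in brain chromatin.

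Whole brain was taken from mouse embryos of stage E13.5 that were wild type with a B6 background. Chromatin precipitated with a rabbit anti-Sap130 antibody (2 µg) gave 1 library, and input DNA of the same genotype, tissue and stage gave the other. Neither library has a replicate, so no value below has a replicate error and no test was made. The peak table gives positions without height, enrichment or significance, and the sequencing depth is unknown. A gene without a peak is therefore one at which no peak was detectable in these libraries. In whole brain, binding in a small fraction of cells and weak binding in many cells cannot be told apart.

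Sap130 is a subunit of the Sin3 corepressor complex, which carries histone deacetylases to promoters and takes acetyl groups off histones. The heart regulators act as a network. Nkx2-5 is an NK-type homeodomain protein, Gata4, Gata5 and Gata6 are zinc finger proteins that bind the GATA sequence, Tbx5 and Tbx20 are T-box proteins, Hand1 and Hand2 are basic helix-loop-helix proteins, Isl1 is a LIM-homeodomain protein of heart progenitors, and Mef2c is a MADS-box protein that switches on muscle genes. Some of them also act in the nervous system. Isl1 is required for motor neurons, Tbx20 is made in cranial motor neurons, Hand2 acts in sympathetic neurons, and Mef2c is a factor of cortical neurons.

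Isl1 was the sole member with a labelled promoter peak, and the other 9 had none. Among all protein-coding genes, 49.2% (exact 95% interval 48.5 to 49.9, counting error only) had such a peak. Counting unlabelled peaks within 100 kb as well, 3 of the 10 genes had a peak, against 63.0% of all protein-coding genes. Peaks of any label, including those of neighbouring genes, lay within 100 kb of 7 of the 10 genes, against 80.6% of all genes. The exceptions were Gata6, Tbx5 and Hand2.

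**Figure D1:**
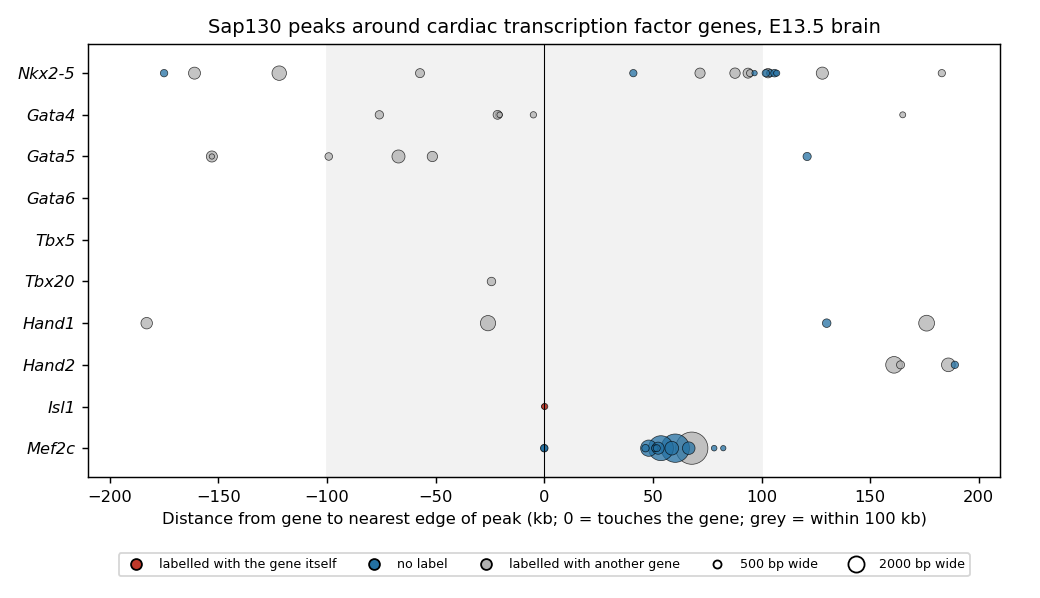
Each row is 1 gene and each circle 1 Sap130 peak, placed by its distance in kb from the gene body (negative values on the side of lower coordinates, 0 where peak and gene touch) with the area of the circle in proportion to peak width. Red circles carry the gene's own label, blue circles no label and grey circles the label of another gene. Isl1 alone has red circles, Mef2c has a run of blue circles 46.6 to 82.4 kb away, and the rows of Gata6 and Tbx5 are empty.

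Isl1 carried 2 narrow peaks, one on each side of its transcription start on chromosome 13 (GRCm38). The first, chr13:116309415-116309646, was 231 bp wide and centred 156.5 bp downstream of the start, in the untranslated part of exon 1 of 6. The second, chr13:116309908-116310199, was 291 bp wide and centred 366.5 bp upstream of the start. They left 262 bp between them, and the start itself lay in this gap.

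Both peaks were among the narrower and later ones of the list. Of all labelled peaks, 1.9% were narrower than the first and 8.44% narrower than the second, while the median labelled peak was 761 bp wide. They stood at places 13564 and 14100 in the list, counted from 1 for the first peak, later than 89.9% and 92.2% of labelled peaks. The quantity that ordered the list is not stated. At least 2 labelled peaks were found at 16.3% of the protein-coding genes that had any. No unlabelled peak lay within 100 kb of Isl1.

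The promoter of Isl1 is shown because it is the only promoter window of these genes that a peak overlapped. It runs from 250 bases before to 50 bases after the start (RefSeq, GRCm38.p6, chr13:116309639-116309938, minus strand), written 5′ to 3′. Capitals mark the 39 bases that fall inside the 2 peaks, whose edges may be off by 1 base because the table does not say whether it counts from 0 or 1.
Isl1: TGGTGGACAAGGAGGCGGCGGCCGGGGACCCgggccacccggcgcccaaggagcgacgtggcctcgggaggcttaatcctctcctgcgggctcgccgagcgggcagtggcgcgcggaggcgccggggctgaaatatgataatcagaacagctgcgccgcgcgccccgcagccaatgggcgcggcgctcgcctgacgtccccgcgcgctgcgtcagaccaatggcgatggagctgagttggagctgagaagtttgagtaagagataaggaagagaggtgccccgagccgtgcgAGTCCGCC
The lower-case stretch between the capitals is the gap that holds the start. The window had 37 CG dinucleotides, more than 92.5% of 20418 promoter windows of protein-coding genes, and 69.0% of its bases were G or C.

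Mef2c had no labelled peak but 14 unlabelled ones within 100 kb. Only 20 of 20953 protein-coding genes, Mef2c included, had 14 or more (0.0955%), and the highest count was 18. The 14 peaks covered 19483 bp, and 0 genes had a larger covered length within the same distance. The median gene had 0 unlabelled peaks within 100 kb, and 35.2% of genes had at least 1. Neighbouring genes share peaks in this count, so the genes are not independent of each other. The count was not adjusted for gene length, and Mef2c spans 163 kb. Nor was it adjusted for how many peaks a nearly continuous stretch was divided into.

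**Figure D2:**
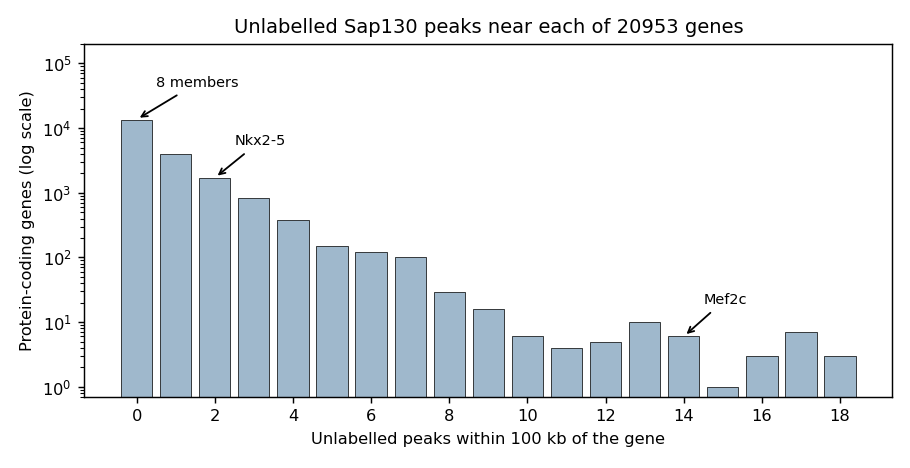
Bars give the number of protein-coding genes (log scale) by the number of unlabelled peaks within 100 kb, over all 20953 genes. Arrows mark the 8 members at 0, Nkx2-5 at 2 and Mef2c at 14.

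Of the 14 peaks, 3 lay inside Mef2c (chr13:83504017-83667079) and were narrow. Their widths were 350, 315 and 452 bp, and their places in the list 12075, 15830 and 15894. The peak at chr13:83524272-83524587 was centred 773.5 bp downstream of one of the 3 Mef2c starts in the RefSeq promoter table (position 83523656), although the authors' table gave it no gene. The peak at chr13:83518072-83518422 lay 5409 bp upstream of the same start and 14213 bp downstream of the outermost start. The last, chr13:83655112-83655564, lay toward the far end of the gene, where the long non-coding RNA gene Gm52044 is also annotated.

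The remaining 11 peaks formed a dense run beyond the higher-coordinate end of Mef2c, around the microRNA gene Mir9-2. All 11 lay nearer to the Mir9-2 hairpin than to Mef2c. The annotated gene nearest to each was a long non-coding RNA gene, Gm52046 or C130071C03Rik, and 8 of the 11 overlapped one of these. Mir9-2 makes miR-9, an abundant brain microRNA of neural progenitors, and its hairpin stood 71.7 kb from Mef2c at chr13:83738814-83738885. The remaining peak of the run carried the label Mir9-2 and measured 7973 bp (chr13:83734932-83742905, place 6907), which made it number 2 of the 16231 peaks by width. The unlabelled peaks beside it included one of 6169 bp (place 5905, number 4 by width), one of 4764 bp (place 8347, number 14) and one of 2036 bp (place 11724, number 645). The other 8 were 218 to 1438 bp wide.

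The wide peaks nearly adjoined each other. From the start of the 2036 bp peak to the end of the Mir9-2 peak, 9 peaks covered 25.4 kb of 27.8 kb (91.7%). This stretch runs through the long non-coding RNA genes Gm52046 and C130071C03Rik, the second of which overlaps Mir9-2. The other 2 loci of miR-9 also had a labelled peak over the hairpin, 2892 bp wide at Mir9-1 (place 4055) and 4078 bp wide at Mir9-3 (place 808). These values describe the neighbourhood of Mef2c and show nothing of which gene the peaks act on.

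**Figure D3:**
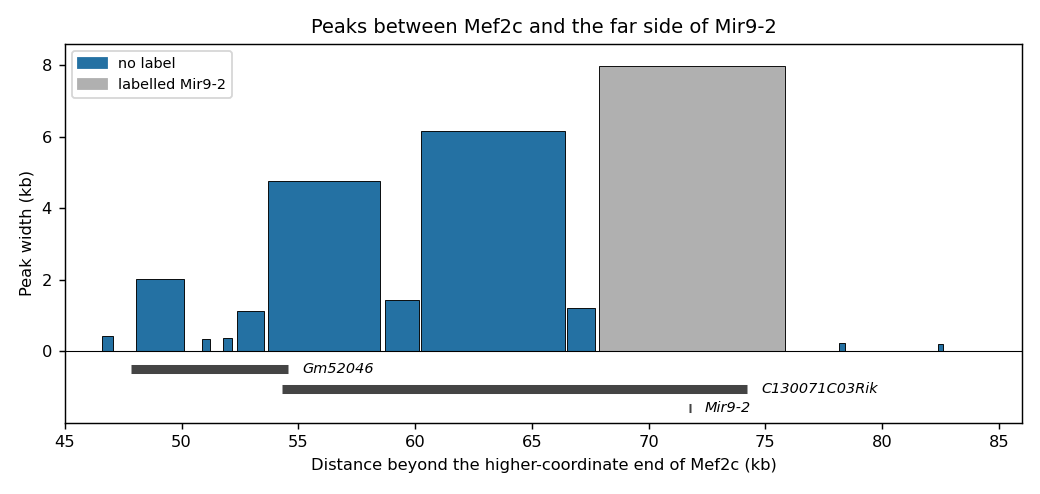
Bars are the 12 peaks beyond Mef2c, drawn to scale along the x axis (kb beyond the higher-coordinate end of Mef2c) with peak width in kb as height, and grey lines below are the annotated genes. The 3 tallest bars, of 4764, 6169 and 7973 bp, lie over C130071C03Rik, and the tallest covers Mir9-2.

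The mature strands of miR-9 and the Mef2c promoter nearest to a peak are shown, because these are the elements that the peaks of this neighbourhood lie over or beside. In the microRNAs (RefSeq, GRCm38.p6, chromosome 13) capitals mark the seed, bases 2 to 8, which pairs with target RNAs. In the Mef2c window (chr13:83523406-83523705, plus strand) capitals mark CG dinucleotides.
miR-9-5p: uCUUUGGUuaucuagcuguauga
miR-9-3p: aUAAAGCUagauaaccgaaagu
Mef2c: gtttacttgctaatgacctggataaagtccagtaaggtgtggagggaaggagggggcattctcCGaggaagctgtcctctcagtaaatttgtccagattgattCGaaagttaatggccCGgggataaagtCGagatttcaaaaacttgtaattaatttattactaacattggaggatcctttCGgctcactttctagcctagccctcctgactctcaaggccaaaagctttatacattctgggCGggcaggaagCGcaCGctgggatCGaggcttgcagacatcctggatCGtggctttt
The Mef2c window ended 567 bp short of the nearest peak and held 10 CG dinucleotides. The windows at the other 2 Mef2c starts held 1 and 4, and no peak overlapped any of the 3.

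Nkx2-5, the homeodomain factor of early heart muscle cells, had no labelled peak and 2 unlabelled ones. The nearer, chr17:26885955-26886368, was 413 bp wide at place 4469 and lay 41.0 kb from Nkx2-5 over the long non-coding RNA gene Gm17382. It stood earliest in the list of all 18 peaks. The other was 221 bp wide at place 15174 and lay 96.8 kb away. A count of 2 or more unlabelled peaks within 100 kb was found for 16.1% of all genes. Labelled peaks of Bnip1, Kifc5b, Phf1 and Cuta lay 57.2 to 94.7 kb from Nkx2-5, so the gene sat between occupied promoters without a peak of its own.

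The 3 GATA members differed in how near the closest peak was, although none had a peak of its own. Gata4 (chr14:63198914-63271712) had a 309 bp peak labelled Neil2, a DNA repair gene, 5.0 kb away at place 12463. Further peaks within 100 kb were labelled Fdft1, the squalene synthase gene, with 3, and Ctsb with 1. The nearest peak of Gata5 (chr2:180325088-180335503) was the 819 bp peak of Cables2 at 51.5 kb, followed by those of the ribosomal protein gene Rps21 and the laminin gene Lama5. The nearest peak of Gata6, in contrast, was an unlabelled one of 279 bp at a distance of 325 kb, and only 9.6% of genes had their nearest peak as far or farther away.

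Tbx5, the T-box gene mutated in Holt-Oram syndrome, lay 231 kb from the nearest peak, that of Rbm19 (695 bp, place 1980). The gene body of Tbx20 lay 24.3 kb from the 554 bp peak of Dpy19l2, and its promoter window lay 77725 bp from that peak. A distance from the gene body as long or longer was found for 12.1% of genes in the case of Tbx5 and for 32.1% in the case of Tbx20. No unlabelled peak lay within 100 kb of either gene.

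Both Hand genes had a gene of the Sin3 complex as the label of their nearest peak. For Hand1 this was the 1786 bp peak of Sap30l, 25.9 kb away at place 820. For Hand2 it was the 2125 bp peak of Sap30, 161 kb away at place 1056. Sap30 and Sap30l encode related subunits of the complex to which Sap130 belongs. Their peaks were at the gene starts of Sap30 and Sap30l, and neither Hand gene had a labelled peak or an unlabelled one within 100 kb.

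The distance to the nearest peak was longer for most members than for most genes. Its median was 33.4 kb over the 10 members and 0 kb over all genes. A peak touched 2 members, Isl1 and Mef2c, whereas 8 had none in the gene body, against 43.7% of all genes. These distances are tied to the labels, because a labelled peak lies at or near its gene. Among the 10639 genes without a label, a peak touched the body of 14.3%. Mef2c was the sole one of the 9 members without a label that a peak touched. The 18 peaks by the rule were also narrower and later than the list as a whole. Their widths ranged from 218 to 6169 bp with a median of 395.5 bp, against 690 bp over all peaks, and 3 were at least 2000 bp wide. Their median place was 13749, against 8116 over all peaks. Most of them are unlabelled, and unlabelled peaks as a class had a median width of 441 bp and a median place of 12558.

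Across the genome, promoters with a Sap130 peak held more CG dinucleotides than promoters without. Gata5, Tbx20 and Hand2 had no peak at CG counts where most windows had one. Windows overlapped by a peak had a median of 24 CG dinucleotides in 300 bases (10096 windows), and windows without overlap a median of 4 (10322 windows). The table matched 6 of the 10 members with 8 windows, not including Gata4, Gata6, Tbx5 and Hand1. The Gata5 and Tbx20 windows each held 26 CG dinucleotides. Among 2069 windows with a count within 2 of that, 87.0% were overlapped by a peak, and neither of these windows was. The Hand2 window held 17, fewer than the median of 24 for windows with a peak. Among 2294 windows within 2 of 17, 75.5% were overlapped, and the Hand2 window was not. The Isl1 window, with 37, had a peak like 92.5% of 853 windows of similar content. The Nkx2-5 window held 9, and 30.2% of 2357 windows of similar content were overlapped. Of windows within 2 of the 3 Mef2c counts (1, 4 and 10), 1.12%, 3.86% and 38.0% were overlapped. This comparison was added after the peaks of the members were known.

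**Figure D4:**
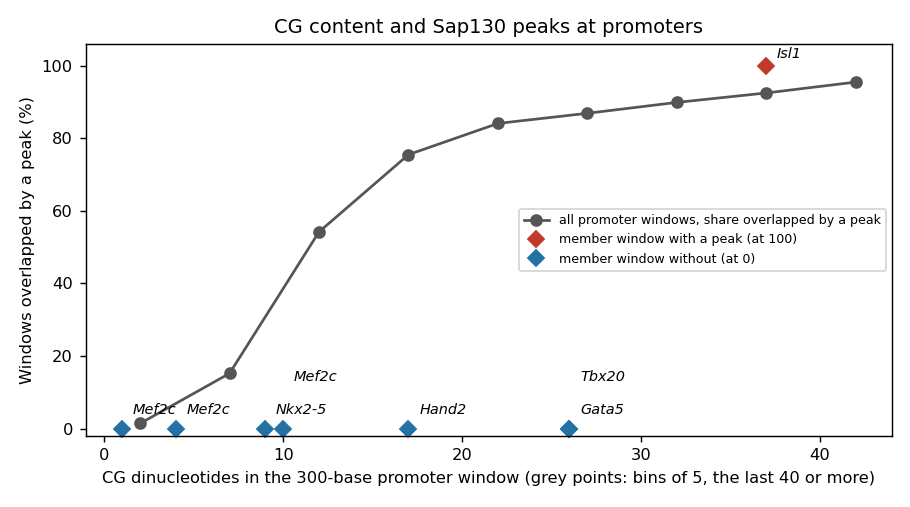
The grey line gives, by number of CG dinucleotides in the 300-base window (bins of 5, the last of 40 or more), the percentage of promoter windows that a peak overlapped, which rises from 1.39% in the lowest bin to 95.5% in the highest. Diamonds are the 8 windows of the members at their own CG count, set at 100 with a peak (Isl1) and at 0 without. Gata5 and Tbx20 share 1 position at 26.

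Windows of Gata5, Tbx20 and Hand2 are shown because they had no peak at a CG content where most promoters did, and that of Nkx2-5 as a promoter with fewer CG dinucleotides. They come from RefSeq (GRCm38.p6) at chr2:180334630-180334929 (minus strand), chr9:24774254-24774553 (minus), chr8:57320733-57321032 (plus) and chr17:26841516-26841815 (minus). Capitals mark CG dinucleotides.
Gata5: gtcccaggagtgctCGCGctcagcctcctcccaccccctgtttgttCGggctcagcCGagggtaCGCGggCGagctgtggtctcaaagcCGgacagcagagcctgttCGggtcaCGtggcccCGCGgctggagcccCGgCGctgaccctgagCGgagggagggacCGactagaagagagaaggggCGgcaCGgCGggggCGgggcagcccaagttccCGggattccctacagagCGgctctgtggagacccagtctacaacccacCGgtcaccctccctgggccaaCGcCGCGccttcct
Tbx20: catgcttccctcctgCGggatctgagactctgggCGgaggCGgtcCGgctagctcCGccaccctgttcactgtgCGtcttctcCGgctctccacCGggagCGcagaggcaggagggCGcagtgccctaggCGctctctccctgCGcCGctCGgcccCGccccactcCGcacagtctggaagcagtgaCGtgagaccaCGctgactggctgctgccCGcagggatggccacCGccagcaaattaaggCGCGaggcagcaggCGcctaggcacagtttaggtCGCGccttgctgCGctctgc
Hand2: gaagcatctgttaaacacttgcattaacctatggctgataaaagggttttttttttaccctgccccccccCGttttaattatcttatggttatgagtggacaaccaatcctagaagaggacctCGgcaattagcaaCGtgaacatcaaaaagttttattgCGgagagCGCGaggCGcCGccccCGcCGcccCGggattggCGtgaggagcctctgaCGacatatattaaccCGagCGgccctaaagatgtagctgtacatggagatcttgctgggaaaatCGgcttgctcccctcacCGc
Nkx2-5: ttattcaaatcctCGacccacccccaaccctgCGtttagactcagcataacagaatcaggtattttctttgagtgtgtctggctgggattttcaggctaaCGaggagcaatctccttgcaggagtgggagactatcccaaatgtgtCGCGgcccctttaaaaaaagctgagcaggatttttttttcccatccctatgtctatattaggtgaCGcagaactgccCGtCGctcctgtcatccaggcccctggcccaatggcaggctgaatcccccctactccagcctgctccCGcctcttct
In Gata5 and Tbx20 the capitals run through the whole window, in Hand2 they gather in its second part, and in Nkx2-5 they are scattered.

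Short motifs were searched on both strands of the 8 windows, and matches of different motifs overlapped in 0 cases. The GC box GGGCGG was in 4 windows (Gata5, Hand2, Tbx20 and 1 of Mef2c) and in 47.7% of all windows. The motif CCAAT was in 5 (Hand2, Isl1, Nkx2-5 and 2 of Mef2c) and in 38.4% of all. The E-box CACGTG, to which Myc and Max family proteins bind, was in the Gata5 window alone and in 8.05% of all. The sequence AGATAA, one form of the GATA site, was in the Hand2 and Isl1 windows and in 9.55% of all, and TATAAA was in 2 Mef2c windows and in 12.4% of all. A match describes the letters of the window and is not a binding site.

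The relatives of these genes had labelled promoter peaks in 17 of 47 cases (36.2%), against 49.2% of all protein-coding genes. Genes that act in the brain were not counted separately among the 17 with a label and the 30 without. Unlabelled peaks within 100 kb, found at 22 of the 47 relatives and at 35.2% of all genes, are not counted among the 17. Of the other MEF2 genes, Mef2d (1889 bp, place 446) and Mef2a (1804 bp, place 3656) had a labelled peak. Mef2b had no label but 1 unlabelled peak within 100 kb. Of the other GATA genes, Gata3 had a labelled peak of 254 bp at place 14655. Gata1 and Gata2 had no label but 2 unlabelled peaks each within 100 kb. Of 6 other NK2 genes, Nkx2-1, a factor of the ventral forebrain, had 2 labelled peaks (the earlier 346 bp wide at place 14006). Nkx2-3 had 1 labelled peak (389 bp, place 13437). Nkx2-2, Nkx2-4, Nkx2-6 and Nkx2-9 had none.

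Among T-box relatives, 3 of 15 had a label. These were Mga (659 bp, place 6196), Tbx6 (408 bp, place 12886) and Eomes (565 bp, place 15285), the last a factor of intermediate progenitors in the cortex. T, Tbr1, Tbx1 and Tbx10 were among the 12 without. A peak not labelled with the gene touched Tbr1, which had 3 unlabelled peaks within 100 kb. The nearest peak lay 0.872 kb from Tbx10, 35.8 kb from Tbx1 and 61.6 kb from T. Among LIM-homeobox relatives of Isl1, 5 of 11 had one. Lhx2, needed for the forebrain, had 2 labelled peaks, the earlier 1734 bp wide at place 8149, and 13 unlabelled ones within 100 kb. Labelled peaks of Lhx9 (677 bp), Lhx5 (972 bp), Lhx1 (1298 bp) and Lmx1a (496 bp) followed. Isl2, the closest relative of Isl1, had no label, and neither had Lhx3, Lhx4 and Lhx6. Of 9 relatives of the Hand genes, Scx, Tcf15, Msc and Twist1 had narrow and late labelled peaks (230 to 608 bp, places 13342 to 16136). Ferd3l, Ptf1a, Tcf21, Tcf23 and Twist2 had no label.

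**Figure D5:**
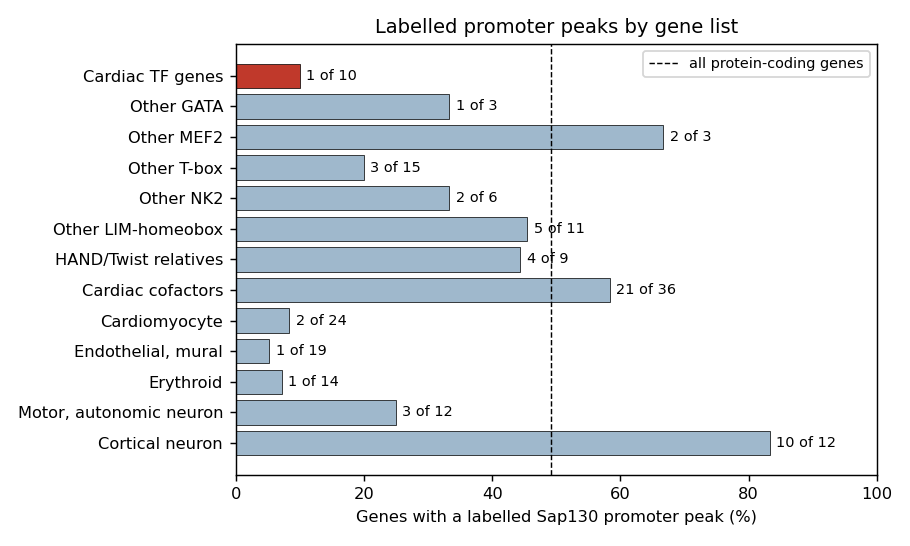
Bars give the percentage of genes in each list with a labelled Sap130 promoter peak, with the count beside the bar, and the dashed line is the 49.2% of all protein-coding genes. The cardiac transcription factor genes (red) are at 1 of 10, cardiomyocyte genes at 2 of 24 and cortical neuron genes at 10 of 12.

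Cofactors with which the heart regulators work carried labelled peaks in 21 of 36 cases (58.3%), near the 49.2% of all protein-coding genes. The earliest were at Srf, the serum response factor gene (1622 bp, place 473), Ldb1, whose protein bridges LIM-domain factors (1272 bp, place 1169), the histone deacetylase gene Hdac5 (1172 bp, place 2111) and Tead1 (1984 bp, place 2316). Zfpm2, a partner of Gata4, had a 1318 bp peak at place 8808, a gene chosen after its values were seen. Foxc2, Foxh1, Hdac4 and Hdac9 were among the 15 without a label. A peak not labelled with the gene touched Foxh1, Hdac4 and Hdac9, and Foxc2 lay 7.81 kb from the nearest peak. Genes of the contractile heart muscle cell, which are targets of the network, were labelled in 2 of 24 cases (8.33%), namely the calcium release channel gene Ryr2 (1067 bp, place 5490) and Actn2 (653 bp, place 10466). Actc1, Ankrd1, Casq2 and Csrp3 were among the 22 without.

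Lists of other cells of the brain gave the range within which these counts lie, beside the 49.2% of all protein-coding genes. Endothelial and mural markers were labelled in 1 of 19 cases (Notch3) and not at Abcc9, Acta2, Cdh5 or Cldn5. Erythroid markers were labelled in 1 of 14 (Tfrc, a transferrin receptor made in many cells) and not at Alas2, Epb42 or Epor. Motor and autonomic neuron genes, the neural setting of Isl1, Tbx20 and Hand2, were labelled in 3 of 12, among them Insm1 and Ret, and Chat, Dbh, Mnx1 and Phox2a were without. Cortical neuron genes, the neural setting of Mef2c, were labelled in 10 of 12, including Bcl11b (2810 bp, place 4364), Foxp2 and Neurod1, and the 2 without were Cux2 and Slc17a7. A peak not labelled with the gene touched Cux2, which had 4 unlabelled peaks within 100 kb. Slc17a7 had 1 and lay 9.29 kb from the nearest peak. The counts of labelled genes were not tested against each other. The part that the share of each cell type in the brain, or the CG content of the promoters, had in them was not tested.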

How the data were processed

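Sap130 ChIP and input DNA from brain of mouse embryos were sequenced, with 1 library of each. Per the submitters' processing notes, Bowtie 1.1.2 and MACS2 2.1.0.20140616 were used with GRCm38 (mm10). How reads that map to several places were handled, and the settings of both tools, are not given in the sources used. What the authors deposited is a single list of peak coordinates, most with a gene label and transcript model, in an order whose basis is not stated, and without height or read counts.

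Labels were matched to RefSeq genes of GRCm38.p6 by transcript accession (12520 peaks), symbol (113) or synonym (21), and 2 stayed unmatched. Transcript starts count from 0 in the table and were raised by 1. Distances run from the nearest edge of a peak to the gene body. Background genes were protein-coding, on the autosomes or X, with a curated transcript. Of the comparison lists 1 gene, Ahsp, was not matched. The members and lists were chosen with earlier results of these data known. The genes named from a list are up to 4 with a label, earliest in the table, and up to 4 without, in alphabetical order, and counts of 5 or fewer are named in full, except for some genes that are not reported here. Peak counting was tested on simulated data. Python 3.11.15, pandas 2.3.3 and numpy 2.4.6 were used. Other settings were distances of 50 and 200 kb or from the peak centre, the first 8116 peaks alone, peaks of at least 690 bp alone, a 500 bp window, either gene end, and all protein-coding genes.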

Additional observations from a re-analysis of the deposited data

How the results depend on the processing

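The count of 1 member with a label held with a 500 bp window around the start and with any peak within 1 kb of either gene end, where the share of all genes was 44.0% and 52.0%. With all protein-coding genes as background the share was 47.7%. It fell to 0 members among the first 8116 peaks and among peaks of at least 690 bp, where 33.0% and 31.7% of all genes kept a label. Unlabelled peaks near members numbered 16. There were 2 among the first 8116 peaks (1 each at Nkx2-5 and Mef2c) and 6 of at least 690 bp, where Mef2c was the 1 member left with a peak. With a distance of 50 kb there were 6. With 200 kb, 6 members had a peak, Gata5, Hand1 and Hand2 having gained 1 each. At that distance 5 members, not 2, lay above the median of all genes (0 peaks). A wider distance can only add peaks to any gene. The share of all genes with a peak by the rule was not computed at 200 kb, so these counts have no background beside them. Leaving out the peaks nearer to Mir9-2 than to Mef2c, an alternative chosen after seeing the data, left 5 unlabelled peaks. The 2 labelled peaks alone had a median width of 261 bp. Of all 28 alternative values, 13 counts and widths moved by at most 1.5 times. Among them were the counts of 1 member named above and all values with distances from the peak centre. The limit was reached by the 24 unlabelled peaks within 200 kb and by the 2 members with a peak among the first 8116. It was not applied to the shares of all genes, which are included in the 28 but not in the 13. Peak height, depth and replicates, which would set the error of each peak, are not in the table used here. No paired analysis was possible because neither the ChIP nor the input has a replicate.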
